A study of Mus musculus with 5 samples.

Results

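The 10 genes described here, grouped as salivary and lacrimal type secretory genes, are Scgb1b27, Scgb2b27, Pip, 2310057J18Rik, Car6, Aqp5, Dcpp1, Smr2, Tesc and Wfdc2. Most encode secreted proteins, whereas Aqp5 is a membrane channel and Tesc encodes an intracellular protein. They were followed in single-cell libraries of mouse mammary tumours, where 10 of 10 were found among 41028 gene names and had UMIs in every library. They were chosen by their UMI counts across the cells and libraries of these same data, so their own levels, cell counts and library differences are given as a description and carry no test.

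The tumours came from PyMT mice, in which the polyoma virus middle T antigen is expressed in mammary epithelium. The sources used here give neither the promoter nor the strain, age or number of animals, and nothing says that samples came from separate animals. All tumours were digested and enriched for viable cells. The 2 samples called fresh 10x 1 and fresh 10x 2 were run fresh on 10x Genomics 3' v2, a droplet method. The sample called stored 10x was run on the same system from a digest that its title labels 24 h, and the protocol describes overnight storage at 4 °C with a loss of viability of at least 20%. The samples BD 1 and BD 2 were run on BD Rhapsody, a microwell method that reads the whole transcriptome. Both are titled fresh, but the deposited BD 2 files are named for 24 h, so BD 2 was kept apart and no storage state was assumed for it. Both methods count unique molecular identifiers (UMIs), which mark single captured molecules near the 3' end of a transcript.

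The libraries held at most 4186 cells each, 29166129 to 59957945 UMIs and a median of 8926 to 12474 UMIs per cell. The 10x libraries shared 1 to 5 cell barcodes pairwise and the BD libraries shared 24, and 0 of these had equal totals. Cells were gated into classes by marker genes, and 63.2% to 68.8% of each library was gated as epithelial by keratins, Epcam, Cdh1 and Cldn4. Unassigned cells made up 11.4% to 17.7%. In BD 1 and BD 2 the median share of mitochondrial UMIs in epithelial cells was 16.1% and 19.9%, against 6.69% to 7.47% in the 10x libraries.

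Salivary and lacrimal glands build their fluid from acinar cells, which secrete proteins into a lumen and draw water after salt. The mammary gland is a related exocrine epithelium whose luminal cells secrete milk. Scgb1b27 and Scgb2b27 encode the alpha and the beta-gamma subunit of an androgen-binding protein, a secretoglobin dimer of mouse saliva and tears. Pip encodes prolactin-inducible protein, a small secreted glycoprotein of apocrine, lacrimal, salivary and mammary tissue. Car6 is the secreted carbonic anhydrase of saliva, and Aqp5 is the apical water channel of salivary, lacrimal and sweat glands. Dcpp1 encodes a demilune cell and parotid protein, and Smr2 an androgen-regulated product of the submaxillary gland. Wfdc2 encodes a secreted protein with WAP four-disulfide core domains, and Tesc encodes tescalcin, a calcium-binding partner of a sodium-proton exchanger. 2310057J18Rik carries the synonym Leg1 in RefSeq.

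The stretches just before the starts of Scgb1b27, Scgb2b27, Pip and 2310057J18Rik are shown first, because these genes, with Car6, gave most of the UMIs of the 10 genes in the richest cells described further on. Scgb2b27 lies on the minus strand of chromosome 7 (GRCm38.p6, chr7:34011919-34013942) and Scgb1b27 on the plus strand (chr7:34021481-34022881). Their transcription starts face away from each other with 7539 bases between them. Pip lies at chr6:41847549-41852065 on the plus strand and 2310057J18Rik at chr10:28972288-28986306 on the minus strand. The 250 bases before each annotated start, from RefSeq, are printed 5′ to 3′ on the gene's own strand. They cover chr7:34021231-34021480 for Scgb1b27, chr7:34013943-34014192 for Scgb2b27, chr6:41847299-41847548 for Pip and chr10:28986307-28986556 for 2310057J18Rik. Of the others, Car6 lies at chr4:150187015-150201135, Aqp5 at chr15:99591028-99594829, Dcpp1 at chr17:23880669-23882853, Smr2 at chr5:88086556-88109053, Tesc at chr5:118027743-118061878 and Wfdc2 at chr2:164562715-164568510, and all 10 are annotated as protein-coding. Capitals mark matches to any of 6 short motifs on either strand.
Scgb1b27: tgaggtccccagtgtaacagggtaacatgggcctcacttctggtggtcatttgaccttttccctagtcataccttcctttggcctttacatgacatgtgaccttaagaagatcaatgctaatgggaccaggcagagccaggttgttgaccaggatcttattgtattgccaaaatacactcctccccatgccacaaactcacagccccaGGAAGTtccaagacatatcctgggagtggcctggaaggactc
Scgb2b27: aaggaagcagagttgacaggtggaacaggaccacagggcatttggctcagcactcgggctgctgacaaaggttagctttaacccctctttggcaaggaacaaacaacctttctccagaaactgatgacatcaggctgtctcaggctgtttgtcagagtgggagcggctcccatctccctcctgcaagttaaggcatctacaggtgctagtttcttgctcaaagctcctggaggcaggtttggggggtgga
Pip: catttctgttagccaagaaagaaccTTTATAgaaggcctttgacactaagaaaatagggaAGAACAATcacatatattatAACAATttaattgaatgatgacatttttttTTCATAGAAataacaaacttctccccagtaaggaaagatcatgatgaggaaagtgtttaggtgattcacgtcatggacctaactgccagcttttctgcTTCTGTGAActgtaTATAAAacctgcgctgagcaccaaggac
2310057J18Rik: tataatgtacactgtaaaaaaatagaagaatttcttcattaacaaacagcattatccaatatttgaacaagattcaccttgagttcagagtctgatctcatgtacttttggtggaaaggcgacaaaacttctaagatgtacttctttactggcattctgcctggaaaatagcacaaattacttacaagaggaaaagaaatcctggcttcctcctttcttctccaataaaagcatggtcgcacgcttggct

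Each motif was searched on both strands, and its background is the share of the same windows of 27025 mouse genes that held a match. The STAT palindrome TTCNNNGAA was in 7.18% of them and the forkhead motif TGTTTAC in 3.09%. The SOX motif AACAAT was in 9.65% and the ETS motif GGAAGT in 20.0%. The TATA box, searched as TATAAA, was in 13.0%. The steroid receptor half-site AGAACA was in 16.2%. The Pip window held 7 matches. Among them were STAT palindromes starting 140 and 42 bases before the start and a TATA box starting 28 bases before it. The half-site 190 bases and a SOX match 188 bases before the Pip start overlap. The Scgb1b27 window held 1 match, an ETS motif 42 bases before the start, and the windows of Scgb2b27 and 2310057J18Rik held 0. Over all 10 genes, the STAT palindrome was in the windows of 1, the SOX motif of 2 and the forkhead motif of 0. The Dcpp1 window, chr17:23880626-23880875, held 0 matches. It reaches into the Dcpp1 span given above, so it is not wholly upstream of that start. None of the 6 motifs was in more than 1 of the 4 windows shown.

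The UMIs of the secretoglobin subunit gene Scgb1b27 were carried by a few cells. Its level was 39.0 CPM (UMIs per 1000000 of the library) in fresh 10x 1 and 111 in fresh 10x 2, against 144 for stored 10x, 264 for BD 1 and 79.7 for BD 2. The highest and lowest library differed 6.78-fold, and the fresh samples alone differed 2.85-fold. Yet the number of cells with at least 5 of its UMIs was 22, 23, 29, 38 and 29 in the same order, or 0.693% to 1.19% of the cells. Of all its UMIs, 90% sat in 15, 12, 8, 9 and 15 cells, called its holding cells here. In stored 10x a single cell of 83299 UMIs carried 4708 of the 7677 Scgb1b27 UMIs, which is 61.3%. In fresh 10x 2 a single cell carried 53.6%, and in BD 1 the 3 richest cells had 3695, 3532 and 2190. With the 10 richest Scgb1b27 cells of each library left out, the highest and lowest library differed 3.34-fold, and the log2 ratio of BD 1 to the fresh mean was 1.16, against 1.82 with all cells. The number of cells with at least 5 Scgb1b27 UMIs differed less between libraries than the level.

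**Figure D1:**
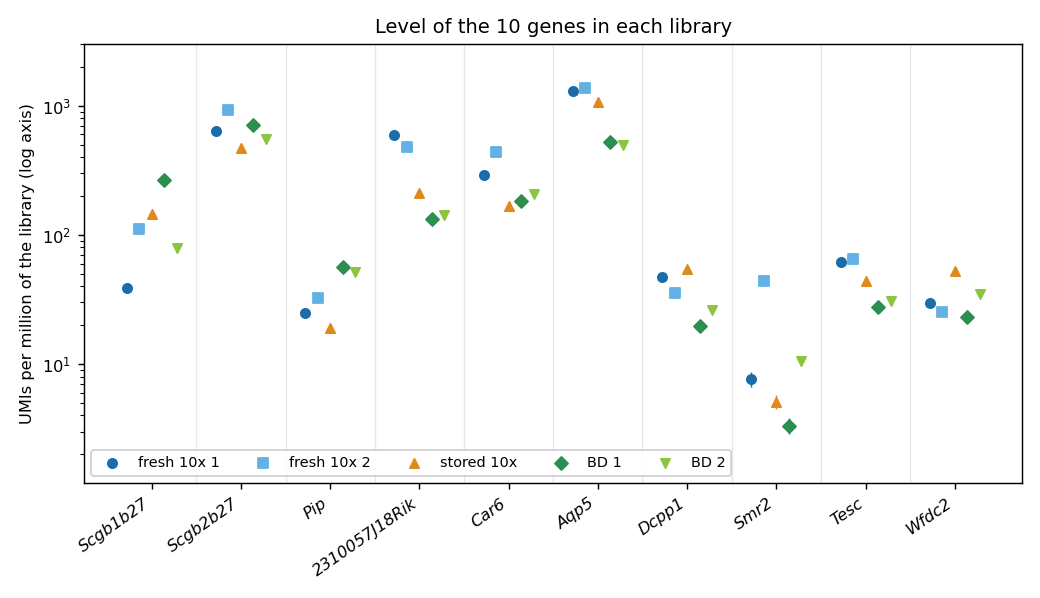
Level of each gene in the 5 libraries, in CPM on a log axis. Bars are 95% Poisson intervals of the count and cover counting error only. Scgb1b27 and Smr2 differ between the fresh 10x samples, while Aqp5 and Tesc lie together in them and lower in both BD libraries.

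Between 79.8% and 98.4% of the Scgb1b27 UMIs were in epithelial-gated cells. In BD 1 the remainder was largely 1 cell gated as fibroblast that had 2190 Scgb1b27 UMIs, and the Scgb1b27 level over BD 1 fibroblasts was 332 CPM with it and 5.82 CPM without it. In fresh 10x 1 a single fibroblast-gated cell had 144 of the 148 Scgb1b27 UMIs of its class. No doublet caller was run, so a mixed barcode and a cell with both programs cannot be told apart. Low counts of Scgb1b27 were also found outside the epithelial class. In BD 1, 10.7% of epithelial cells (median depth 13292 UMIs) had a Scgb1b27 UMI, and so did 8.95% of 190 macrophages (median 11500.5 UMIs), a class that should lack it. In the other libraries 0.552% to 2.22% of macrophages had one. The share of 10.0% of all BD 1 cells with a UMI is close to that of macrophages, and the part of background in it was not tested. After thinning every cell to 2000 UMIs, the share of all BD 1 cells was 2.31%.

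Scgb2b27, the partner subunit gene, was spread over many more cells. Its level was 631 CPM in fresh 10x 1 and 918 in fresh 10x 2, against 468 for stored 10x, 706 for BD 1 and 552 for BD 2. It was detected in 37.0% to 49.4% of cells, and 187, 244, 406, 359 and 438 cells held 90% of its UMIs. After thinning as for Scgb1b27, it was detected in 19.6% to 27.9% of cells. A Scgb2b27 UMI was found in 47.0% to 61.8% of epithelial cells over the libraries. The share was 7.7% to 23.7% in macrophages and 10.2% to 30.4% in fibroblasts, in both highest in BD 1. The part of background in the detection of Scgb2b27 was not tested. Every Scgb1b27 holding cell was also a Scgb2b27 holding cell in each of the 5 libraries, and these cells were 1.97% to 8.02% of the Scgb2b27 holding cells. For comparison, Scgb2b27 holding cells made up 9.01% to 12.7% of all cells. So Scgb1b27 marked a small part of the cells with much Scgb2b27, and most cells with Scgb2b27 had little or no Scgb1b27. The top Scgb2b27 cell had 4.99% to 8.62% of the UMIs of the gene.

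Pip was held by fewer cells than Scgb1b27 in every library. Its level was 24.7 CPM in fresh 10x 1 and 32.2 in fresh 10x 2, against 19.1 for stored 10x, 56.6 for BD 1 and 51.9 for BD 2. Only 12 to 20 cells per library had at least 5 Pip UMIs, and 14, 8, 6, 4 and 5 cells held 90% of them. The richest Pip cell had 24.7% of the UMIs in fresh 10x 1 and 48.7% in fresh 10x 2, against 71.9% for stored 10x, 52.1% for BD 1 and 50.7% for BD 2. Both BD libraries lay above both fresh samples, by a ratio of 0.99 and 0.87 on the log2 scale to the fresh mean. With only the richest Pip cell of each library left out, these ratios were 0.63 and 0.54. With the 10 richest left out they were -0.30 and -0.73. Those 10 cells had 83.1% to 96.3% of the Pip UMIs in each library, so the last ratios compare only small remainders. The BD 1 matrix contains a pair of deposited subset matrices, which are named rep1 and rep2 and were not used as replicates here. The Pip level was 149.5 CPM in the cells of the first, 4.25 in the cells of the second and 2.11 in the 710 cells of neither. Scgb1b27 was likewise uneven over these parts, with 432, 224 and 11.5 CPM. Broader genes differed over them as well, with 252, 129 and 178 CPM for Car6 and 643, 418 and 550 CPM for Aqp5.

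2310057J18Rik was higher on fresh 10x than in the other 3 libraries. Its level was 596 CPM in fresh 10x 1 and 482 in fresh 10x 2, against 212 for stored 10x, 133 for BD 1 and 142 for BD 2. The fresh mean was 539 ± 80.2 CPM (SD, n = 2), and the log2 ratio to it was -1.34 for stored 10x, -2.02 for BD 1 and -1.92 for BD 2. Within BD 1 the level was uneven, at 246 CPM in the first subset, 64.7 in the second and 77.3 in the cells of neither. Each of these lay below both fresh samples. The share of cells with at least 5 UMIs was 11.1% and 11.0% in the fresh samples and 4.35%, 4.19% and 3.54% in the others, so both level and cell share were lower. About the same number of cells, 120, 110, 115, 107 and 104, held 90% of the UMIs although the fresh libraries had fewer cells. In stored 10x a single unassigned cell of 38263 UMIs had 2786 of the 11331 UMIs (24.6%), and it was also the richest Pip and Car6 cell of that library.

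Car6, the secreted carbonic anhydrase, was found in 25.98% to 29.97% of cells in every library. Its level was 293 CPM in fresh 10x 1 and 441 in fresh 10x 2, against 166 for stored 10x, 182 for BD 1 and 207 for BD 2, with no overlap between the fresh samples and the others. Its holding cells numbered 143 and 115 in the fresh samples and 385, 367 and 471 in the others, or 5.97% to 6.89% of fresh cells against 9.63% to 11.3%. The 10 richest cells had 42.8% and 38.7% of the Car6 UMIs in the fresh samples and 21.7% to 28.6% in the others. A fixed number of 10 cells is a larger share of the fresh libraries, which have fewer cells. The detection of Car6 was thus alike while its UMIs were more concentrated in the fresh libraries. In fresh 10x 1 the richest cell, an unassigned one, had 1244 Car6 UMIs, 7.91% of all UMIs in that cell.

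Aqp5 was the broadest of the 10 genes. Its level was 1293 CPM in fresh 10x 1 and 1358.7 in fresh 10x 2, against 1061 for stored 10x, 522 for BD 1 and 499.7 for BD 2, so the fresh pair lay within 1.05-fold of each other. It had a UMI in 79.8% to 92.8% of epithelial cells, and 671 to 1417 cells held 90% of its UMIs. The richest cell had at most 1.30% of them. The log2 ratio to the fresh mean of 1326 ± 46.4 CPM (SD, n = 2) was -0.32 for stored 10x, -1.35 for BD 1 and -1.41 for BD 2. Leaving out the 10 richest cells gave -0.30, -1.34 and -1.40, so no few cells set these values. Aqp5 UMIs in other classes were fewer: 11.1% to 29.3% of macrophages had one, at 16.7 to 274 CPM, against 576 to 1549 CPM over epithelial cells. Fibroblasts with an Aqp5 UMI made up 40.6% to 48.2% on 10x and 14.8% to 17.3% on BD.

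Tesc had the same order of libraries as Aqp5 except that BD 1 was lowest. Its level was 62.1 CPM in fresh 10x 1 and 64.7 in fresh 10x 2, against 44.3 for stored 10x, 27.5 for BD 1 and 31.0 for BD 2. It was found in 14.9% to 26.3% of cells and its richest cell had at most 3.31% of the UMIs. The log2 ratio to the fresh mean was -0.52 for stored 10x, -1.21 for BD 1 and -1.03 for BD 2, with both fresh samples above the other 3 libraries.

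**Figure D2:**
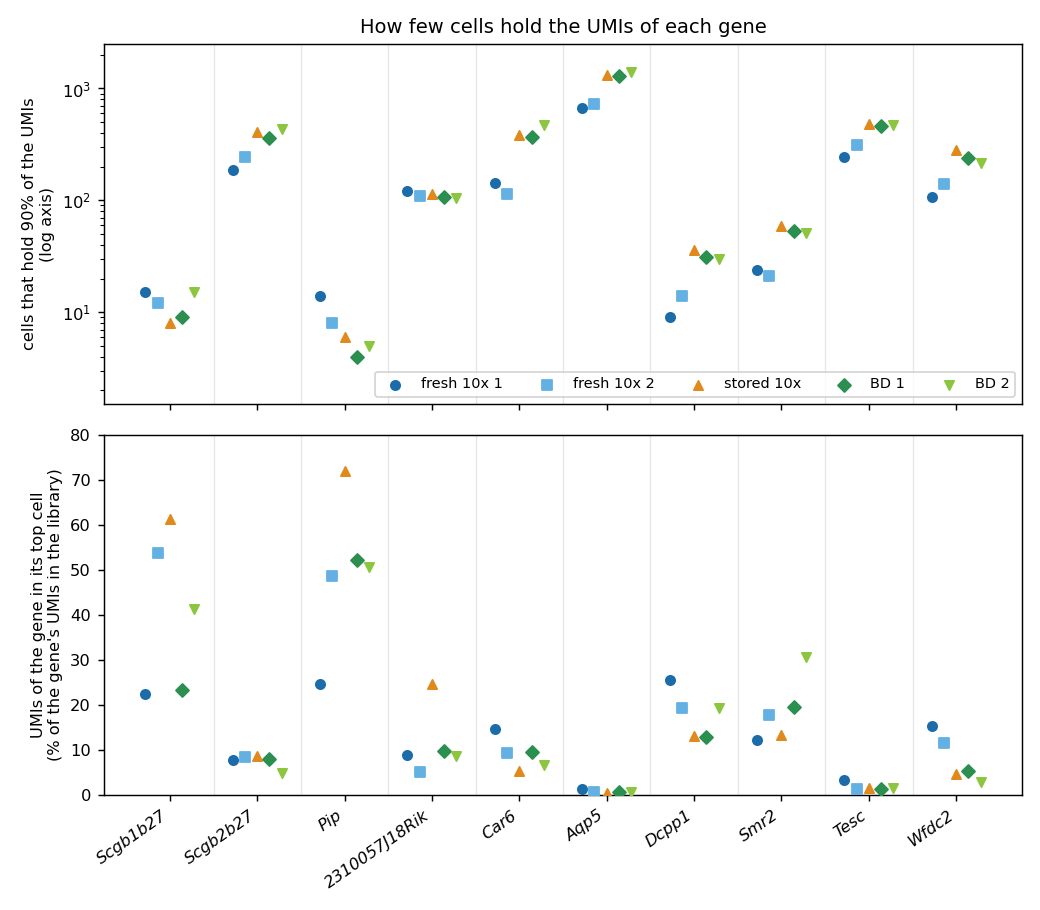
The upper panel gives the number of cells that hold 90% of the UMIs of a gene in each library, on a log axis, and the lower panel the share of the UMIs in its richest cell. Scgb1b27 and Pip need 4 to 15 cells, whereas Aqp5 needs 671 to 1417.

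Dcpp1 was carried by few cells too. Of the Dcpp1 holding cells, 0% to 11.1% were Scgb1b27 holding cells and 0% to 33.3% were Pip holding cells. For comparison, Scgb1b27 holding cells made up 0.2% to 0.723% and Pip holding cells 0.106% to 0.675% of all cells. Both highest overlaps were in fresh 10x 1, which had 9 Dcpp1 holding cells. Its level was 46.9 CPM in fresh 10x 1 and 35.7 in fresh 10x 2, against 54.6 for stored 10x, 19.5 for BD 1 and 26.04 for BD 2. It was found in 1.98% to 3.58% of cells, and 9, 14, 36, 31 and 30 cells held 90% of its UMIs. The highest single cells had 350, 207, 381, 151 and 252 UMIs. In the reference transcripts the last 200 bases of Dcpp1 are 97.5% identical to those of Dcpp2 and 97.0% to those of Dcpp3. Reads from this 3' end may therefore be split between these genes, and the Dcpp1 counts are uncertain. The log2 ratio of BD 1 to the fresh mean was -1.08 with all cells and 0.54 without the 10 richest Dcpp1 cells of each library. These 10 cells are a larger share of the fresh libraries, which have fewer cells.

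Smr2 differed most between the fresh samples. Its level was 7.61 CPM in fresh 10x 1 and 44.1 in fresh 10x 2, against 5.10 for stored 10x, 3.32 for BD 1 and 10.6 for BD 2. Fresh 10x 2 stood above every other library and was 5.79-fold above its own replicate, while the other 4 lay between 3.32 and 10.6. It rested on 199 to 1324 UMIs per library, and 12 to 25 cells had at least 5. The cells of the pooled fresh 10x matrix that are in no matrix per sample gave 37.9 CPM. The last 200 bases of Smr2 are 80.9% identical to those of its neighbour in the family, Smr3a.

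Wfdc2, like Dcpp1, had its highest level in stored 10x, and the other 8 genes did not. Its level was 29.7 CPM in fresh 10x 1 and 25.4 in fresh 10x 2, against 52.4 for stored 10x, 23.3 for BD 1 and 34.8 for BD 2. It was found in 9.29% to 14.03% of cells. Cells with at least 5 UMIs made up 1.35% and 1.56% in the fresh samples, 3.0% for stored 10x, 1.48% for BD 1 and 2.39% for BD 2. The log2 ratio of stored 10x to the fresh mean was 0.93, and it was 1.07 without the richest cell and 1.55 without the 10 richest cells. Those 10 cells had 55.6% and 45.5% of the Wfdc2 UMIs in the fresh samples, which have fewer cells, and 24.3% in stored 10x. Leaving them out therefore lowers the fresh level more.

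By a plain fold rule, at least 2-fold from the fresh mean and outside both fresh samples, 3 of the 10 genes were lower in stored 10x, namely 2310057J18Rik, Car6 and Smr2. Among 16973 genes tested, 5.66% were lower by the same rule. None was higher, beside 4.07% of all genes. In BD 1, 6 were lower (2310057J18Rik, Car6, Aqp5, Dcpp1, Smr2 and Tesc) beside 11.9% of all genes, and 1 was higher (Scgb1b27) beside 18.6%. In BD 2, 3 were lower (2310057J18Rik, Aqp5 and Tesc) beside 14.2%, and 0 were higher beside 16.0%. The genes were chosen partly for such differences, so nothing is read from these counts. These comparisons share the fresh samples. The fresh samples themselves differed at least 2-fold for 9.03% of all genes, Scgb1b27 and Smr2 among them. Between the BD libraries, Scgb1b27 was 3.32-fold higher in BD 1 and Smr2 3.20-fold higher in BD 2, and the other 8 differed by less than 2-fold. Of all genes, 4.12% were at least 2-fold lower in BD 2 than in BD 1 and 1.97% higher. In whole libraries, fewer cells of a kind and less RNA per cell cannot be told apart.

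In the richest cells these genes made up a large part of the UMIs. The highest share of a cell's UMIs taken by the 10 genes together was 14.3% in fresh 10x 1 and 42.3% in fresh 10x 2, against 13.9% for stored 10x, 35.2% for BD 1 and 25.5% for BD 2. At least 5% was reached by 4, 12, 6, 9 and 9 cells, and at least 1% by 108, 145, 82, 86 and 72 cells. The median epithelial cell gave 0.151%, 0.169%, 0.104%, 0.0647% and 0.0623%. The top cell of fresh 10x 2, with 11878 UMIs in all, had 1790 from Scgb1b27, 2317 from Scgb2b27, 780 from Car6 and 0 from Pip. The top cell of BD 1, with 23692 UMIs, had 3532 from Scgb1b27, 2161 from Scgb2b27, 1767 from Pip and 634 from 2310057J18Rik. The second cell of fresh 10x 2 had only 285 UMIs in all, 27.0% of them from the 10 genes, and was unassigned. Mitochondrial genes, whose share is a sign of cell quality, made up 8.98%, 20.5%, 21.3%, 12.9% and 22.8% of the UMIs in the 5 top cells of BD 1. In the 5 top cells of BD 2 they made up 22.7%, 11.6%, 24.7%, 14.9% and 55.1%. In the 10x libraries the range over the top cells was 5.06% to 35.1%. The part of cell quality in these shares was not tested.

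**Figure D3:**
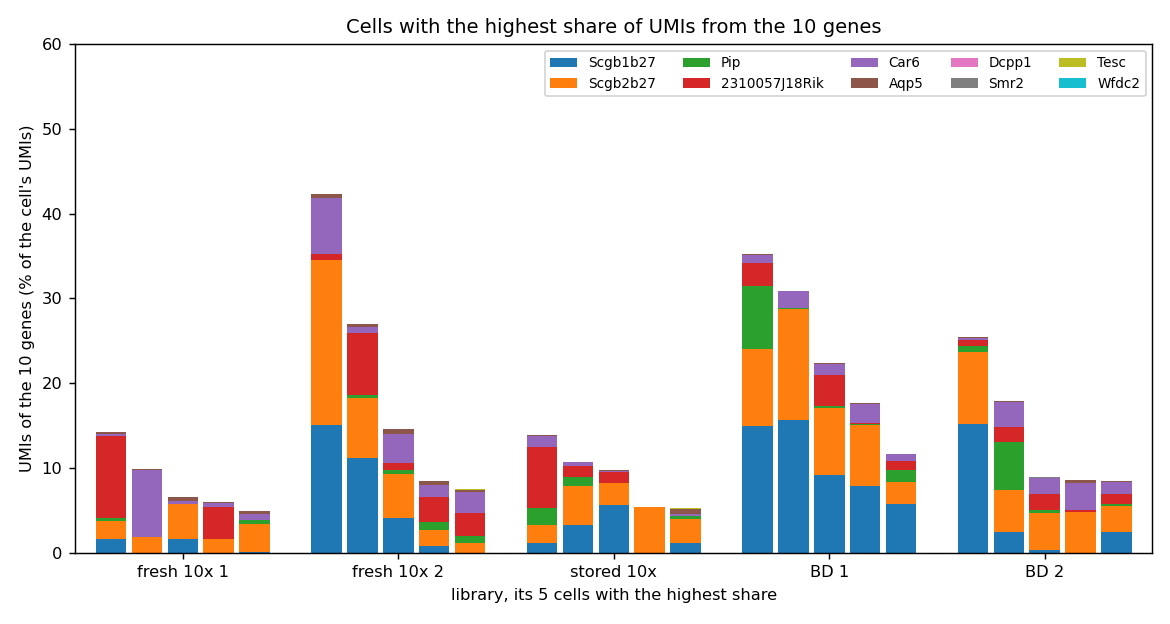
The 5 cells of each library with the highest share of UMIs from the 10 genes, each bar split by gene and given as percent of the UMIs of that cell. Scgb1b27, Scgb2b27, Pip, 2310057J18Rik and Car6 fill nearly all of each bar in varying proportion, and Dcpp1, Smr2 and Wfdc2 are barely seen.

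The mixture differed from cell to cell. Some top cells had Scgb1b27 and Scgb2b27 with next to no Pip, such as the fourth cell of BD 1 with 3695, 3421 and 6 UMIs. The second cell of BD 2 had more Pip (1314 UMIs) than Scgb1b27 (574) or Scgb2b27 (1148). The second cell of fresh 10x 1 had 1244 Car6 and 295 Scgb2b27 UMIs with 0 from Scgb1b27, Pip and 2310057J18Rik. Over these 25 cells the number of Dcpp1 UMIs was 0 in each, and that of Smr2 was at most 4.

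Correlation across all cells of a library (Pearson, log of 1 plus UMIs per 10000, mean of the 5 libraries) showed 3 patterns. Points within a library share its depth and background, so the values describe the libraries and carry no test. In the first pattern, the narrowly held genes Scgb1b27 and Pip correlated at 0.413 (0.302 to 0.538 by library). By Spearman's rank correlation the mean for this pair was 0.160 (0.0716 to 0.206 by library). 2310057J18Rik, held by more cells, correlated with Scgb1b27 at 0.294 and with Pip at 0.250, and more with the broader genes Scgb2b27 (0.382) and Car6 (0.308). The Scgb1b27 holding cells, which were 0.2% to 0.723% of the cells of a library, contained 42.6% of all Pip UMIs in fresh 10x 1 and 20.3% in fresh 10x 2, against 85.8% for stored 10x, 89.3% for BD 1 and 71.0% for BD 2. Of the Pip holding cells, 25% to 75.0% were Scgb1b27 holding cells, and 16.7% to 37.5% the other way. The sets of holding cells of these genes shared 2 to 4 cells per library, and the correlation without the shared cells was not computed. In the pooled fresh 10x cells that are in no matrix per sample (2518 cells) the correlation of Scgb1b27 and Pip was 0.210. This alternative was added after the data were seen.

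In the second pattern, the broad genes varied together over many epithelial cells. Scgb2b27 correlated with Car6 at 0.463, with Aqp5 at 0.450 and with Tesc at 0.354, and Aqp5 with Tesc at 0.397. Within epithelial-gated cells alone these means were 0.440, 0.384, 0.335 and 0.368, each lower than over all cells. By Spearman's rank correlation over all cells they were 0.362, 0.469, 0.353 and 0.424. Of the Tesc holding cells 81.0% to 87.3% were Aqp5 holding cells, while Aqp5 holding cells made up 32.3% to 37.6% of all cells. Holding cells are deep cells: the median total was 18898 to 20393 UMIs for Aqp5 holders outside BD 2 and 16019 in BD 2, against library medians of 8926 to 12474. Their selection by UMI counts favours depth, and its part in the overlaps was not tested.

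In the third pattern, Dcpp1, Smr2 and Wfdc2 had low mean correlations with the other genes. Their holding cells still overlapped with those of Aqp5, which were 32.3% to 37.6% of all cells. Aqp5 holders made up 71.4% to 100% of Dcpp1 holders, 28.6% to 75.0% of Smr2 holders and 38.0% to 51.1% of Wfdc2 holders. Car6 holders, 5.97% to 11.3% of all cells, made up 14.3% to 55.6%, 4.76% to 54.2% and 8.33% to 14.3%. The part of depth in these overlaps was not tested. Of its 9 pairs, Dcpp1 had the lowest mean correlation with Wfdc2 (-0.0023) and the highest with Aqp5 (0.0834). Higher values of Dcpp1 were seen in fresh 10x 1, with Pip (0.358), Smr2 (0.259), Car6 (0.170) and Scgb2b27 (0.114). There 3 of the 9 Dcpp1 holding cells were among the 14 of Pip, and 5 were among the 143 of Car6. In the other 4 libraries Dcpp1 and Pip shared 0 holding cells and their correlation was -0.0123 to 0.00892. Smr2 reached 0.12 with Car6 and Wfdc2 reached 0.07 with Smr2. Wfdc2 gave -0.05 with Scgb2b27 over all cells and -0.10 in epithelial cells, and with Aqp5 -0.01 and -0.12. By Spearman's rank correlation over all cells, Wfdc2 gave 0.02 with Scgb2b27 and 0.06 with Aqp5, so the sign turned.

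**Figure D4:**
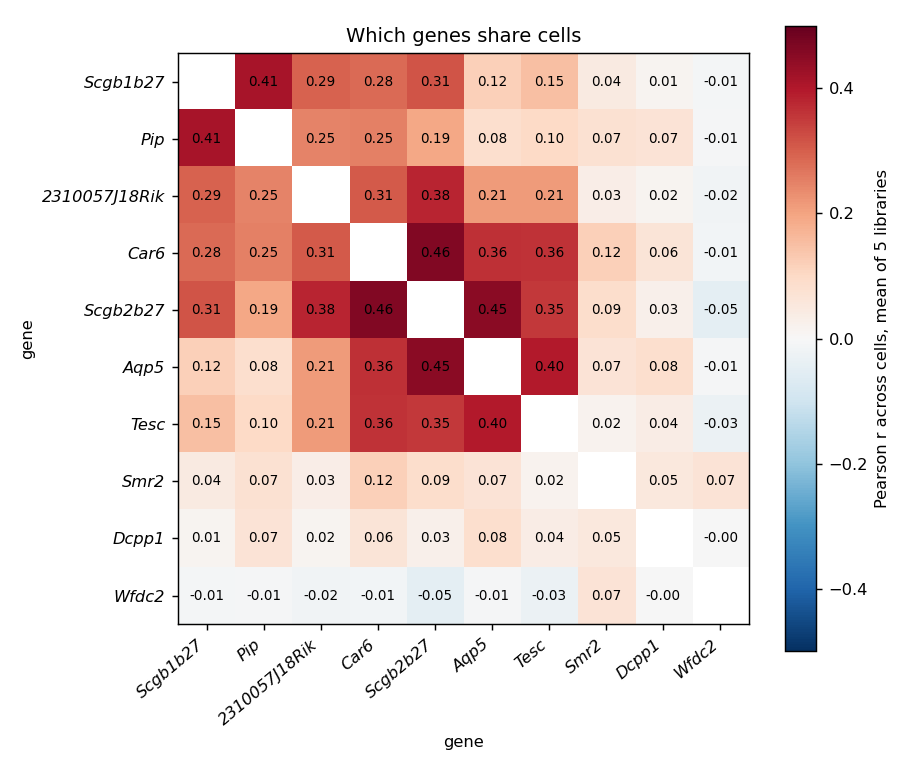
Pearson correlation of each pair of the 10 genes across all cells, as the mean of the 5 libraries. The pairs of Scgb1b27, Pip, 2310057J18Rik, Car6, Scgb2b27, Aqp5 and Tesc range from 0.08 to 0.46, and those that involve Smr2, Dcpp1 or Wfdc2 from -0.05 to 0.12.

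Genes outside the 10 with the most similar pattern across cells were sought among 11805 genes with at least 50 UMIs in every library. For Scgb1b27 and for Pip the first was Oit1, with mean correlations of 0.311 and 0.312, and Scgb2b26, another secretoglobin of this family, followed at 0.227 and 0.205. Dpp10 was the third for Scgb1b27 (0.212) and Arg1, an arginase, the second for Pip (0.241). For Aqp5 the first was Kcnn4, a calcium-activated potassium channel, at 0.635, followed by Pgp at 0.589 and Trf, transferrin, at 0.569. Kcnn4 was also first for Scgb2b27 (0.415), ahead of the sodium-potassium-chloride cotransporter Slc12a2 (0.406) and the copper transporter family gene Slc31a2 (0.404). 2310057J18Rik had Kcnn4 at 0.256, Slc12a2 at 0.255 and Dpp10 at 0.247. Car6 had Slc12a2 (0.429), Arg1 (0.403) and the carboxypeptidase gene Cpd (0.361). Tesc had Tspan1 (0.347), Cpd (0.341) and Kcnn4 (0.335).

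Dcpp1 and Smr2 had Arg1 among their first 3 genes, as did Pip and Car6, while Wfdc2 shared none of its first 3 with the other 9. Dcpp1 was closest to Dcpp2 at 0.730 (0.577 to 0.864 by library), a value that split reads between these near copies can raise. Its next genes, Arg1 (0.117) and Nme1 (0.112), were far below. Wfdc2 was closest to Slpi, a secreted protease inhibitor with the same kind of domain, at 0.393 (0.193 to 0.492), ahead of the Wnt inhibitor Wif1 (0.196) and Mtmr7 (0.188). Smr2 had only weak neighbours: Arg1 at 0.187, the secretoglobin Scgb1c1 at 0.133 and Cldn10 at 0.132.

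The holding cells also differed in milk protein genes, measured as the summed caseins, Lalba, Wap and Glycam1 per 10000 UMIs in epithelial-gated cells. In Wfdc2 holders the median was 139.8 against 143 in other epithelial cells of fresh 10x 1 and 165 against 169 in fresh 10x 2. It was 51.8 against 157 in stored 10x, 122 against 239.5 in BD 1 and 12.5 against 217 in BD 2. Smr2 holders were lower in all 5 libraries, with 45.0 against 143, 8.50 against 170.3, 77.4 against 152, 175 against 234 and 28.3 against 208. Car6 holders were lower in all 5 as well, from 83.4 against 174 in fresh 10x 2 to 161 against 244 in BD 1. Scgb1b27 holders lay on both sides, with 96.8 against 169 in fresh 10x 2 and 245 against 232 in BD 1. Each of these is a difference between cells within a library, and no test over samples was run on it.

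**Figure D5:**
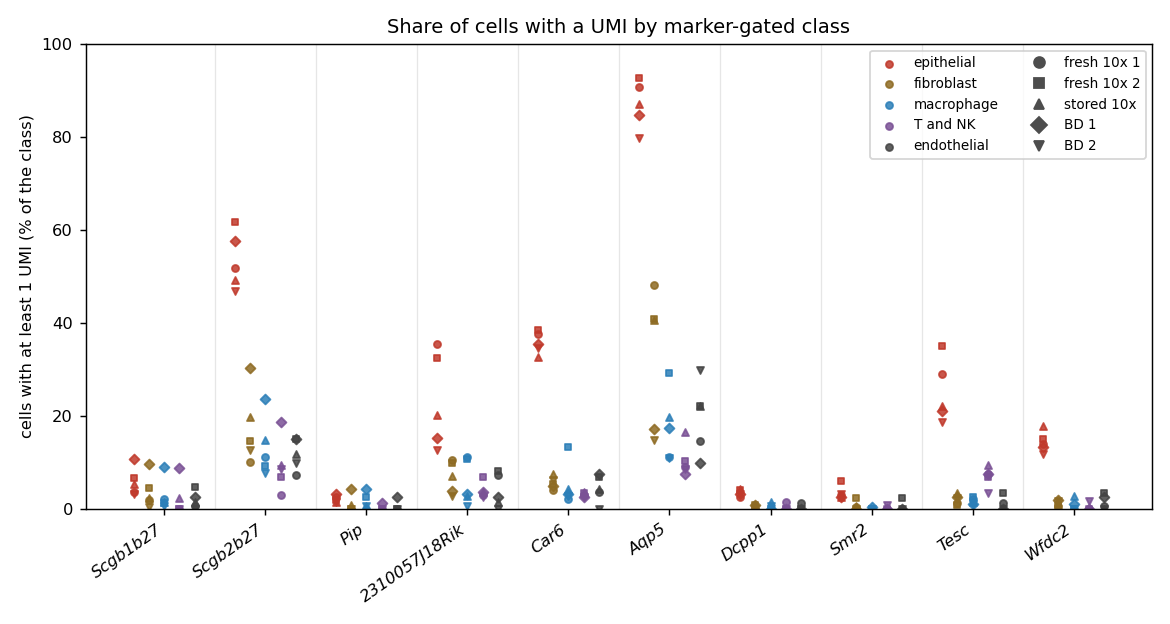
Share of cells with at least 1 UMI of each gene in 5 marker-gated classes, with a symbol per library. Among these classes every gene has its highest share in epithelial cells in each library, except Pip in fresh 10x 2 (macrophages) and BD 1 (fibroblasts), and in BD 1 the Scgb1b27 shares of fibroblasts, macrophages and T and NK cells come close to that of epithelial cells.

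Genes listed as markers of the salivary acinar cell were at uneven levels in the same libraries. A list of 10 such genes, of which 9 were found by name, summed to 45.5 CPM in fresh 10x 1 and 90.4 in fresh 10x 2, against 31.2 for stored 10x, 47.8 for BD 1 and 60.7 for BD 2. Prol1 and the transcription factor gene Bhlha15 gave most of it, with 8.52 to 63.7 and 16.4 to 35.7 CPM. Muc5b was listed at 0 in every library, Prb1 was listed at 0 in the 10x libraries and had 29 and 3 UMIs in BD 1 and BD 2, and Bpifa2 had 1 to 12. Dmbt1 had 0 to 13 UMIs. Of a lacrimal and Harderian list, Obp1a was listed at 0 in every library, and Scgb1b24, Lcn11 and Esp6 were listed at 0 in the 10x libraries and had at most 1 in the BD libraries. Acot1 made up most of that list with 103 to 134 CPM, and Mup4 had 0.901 to 17.6 CPM. A list for sweat or sebaceous gland and skin summed to 1197 to 1601 CPM, mostly from Mgst1 and Sox9, which other epithelia also express. In the epithelial Pip holders, 2 to 13 cells a library, the acinar list had medians of 0.444 to 1.996 UMIs per 10000 in 4 libraries and 12.02 over the 2 holders of BD 1, against 0 in other epithelial cells. The list was above 0 in Car6 and Tesc holders of all 5 libraries too, with medians of 0.238 to 0.925 and 0.159 to 0.604. Pip holders were deeper, with a median of 16455 to 31921 UMIs against 10513 to 13287 in other epithelial cells, and the part of depth was not tested.

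Other genes of these families were tested in whole libraries with edgeR's quasi-likelihood test and Benjamini-Hochberg adjustment over 16973 genes. This called 0.112% of genes higher and 0.0354% lower in stored 10x against fresh 10x, and 20.1% higher and 18.6% lower in BD 1 against fresh 10x. Among the samples only fresh 10x has a replicate, and the single libraries are assumed to vary as that pair does. BD 1 entered as a single library, although its subset matrices are named rep1 and rep2. The counts given below for the lists stand beside these shares of all genes, and no change of a family is read from them. Of the Abp secretoglobin family, 31 further names were found, 5 passed the filter on low counts, and 2 rose in BD 1. Scgb2b24 rose from 3 and 4 UMIs to 38 (log2 change 2.26 ± 0.63 SE, edgeR adjusted p = 0.0464). Scgb1b3 was listed at 0 in the 10x libraries and had 23 UMIs in BD 1, and its fold is not given. The last 200 bases of Scgb1b27 are 88.5% identical to Scgb1b30, and those of Scgb2b27 86.9% to Scgb2b26, so a part of the small family counts may come from shared reads.

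Of 10 carbonic anhydrase genes tested, 1 rose in stored 10x. This was Car3, known from muscle and fat, with 4 and 3 UMIs in fresh 10x and 520 in stored 10x (log2 change 6.40 ± 0.39 SE, edgeR adjusted p = 0.0393). In BD 1, 3 rose and 1 fell: Car12, a membrane form, rose by 1.12 ± 0.19 SE on the log2 scale, Car5b by 0.64 ± 0.13 and Car3 by 1.97 ± 0.49, and Car8 fell by 0.89 ± 0.13, with edgeR adjusted p from 0.00865 to 0.0344. The list had a median log2 change of 0.11 in BD 1 against 0.03 over all genes.

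Of 19 fluid and ion transport genes tested, 0 were called in stored 10x, while 4 rose and 3 fell in BD 1. The chloride channel Ano1 rose by 0.71 ± 0.15 SE, Car12 as above, the anion exchanger Slc4a2 by 0.86 ± 0.11 and the sodium pump subunit Atp1b1 by 0.53 ± 0.14. Kcnn4 fell by 0.57 ± 0.16, the scaffold gene Slc9a3r1 by 1.26 ± 0.11 and the calcium release channel Itpr2 by 0.53 ± 0.12. Their edgeR adjusted p lay between 0.0028 and 0.0434. Kcnn4, the closest companion of Aqp5 across cells, was at 389 and 478 CPM in fresh 10x and 321 in BD 1. The median of the list was 0.25.

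Of 20 salivary and lacrimal secreted products tested, 0 were called in stored 10x, and 4 rose and 3 fell in BD 1. The immunoglobulin transporter Pigr rose from 29.8 and 37.7 to 119 CPM, the lysozyme Lyz2, also a macrophage gene, from 80.3 and 150 to 348 CPM, and the amylase Amy1 from 0.411 and 0.499 to 2.58 CPM. Macrophages were 2.17% and 3.90% of fresh 10x cells and 5.04% of BD 1 cells, and their part in the Lyz2 result was not tested. Prb1 was the fourth, from a listed 0. The salivary genes Smr3a and Bpifa2 and the disulfide isomerase Agr2 fell, Smr3a from 6.34 and 1.90 to 0.400 CPM. The edgeR adjusted p of the 7 lay between 0.00287 and 0.0406, and the list's median log2 change was -0.02.

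Of 19 regulators of exocrine epithelium tested, 0 were called in stored 10x, and 3 rose and 2 fell in BD 1. Sox10, needed for secretory units in several glands, rose from 70.6 and 72.6 CPM in fresh 10x to 394 in BD 1 (log2 change 2.32 ± 0.10 SE, edgeR adjusted p = 0.00102). It was at 126 CPM in stored 10x and 327 in BD 2. Elf3 and Creb3l1 rose by 0.63 ± 0.16 and 0.99 ± 0.14 SE, and Spdef and Barx2 fell by 1.14 ± 0.23 and 0.47 ± 0.12. Of 10 WAP four-disulfide core genes besides Wfdc2, 0 were called in stored 10x, and Wfdc21 rose in BD 1 from 0.446 and 0.133 to 2.18 CPM (log2 change 2.77 ± 0.63 SE, edgeR adjusted p = 0.0259). The medians of these lists in BD 1 were 0.23 and 0.48. Storage and platform comparisons share the fresh samples.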

How the data were processed

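Single-cell libraries of PyMT mammary tumours were analysed from 5 samples. The authors deposited matrices of raw UMI counts per gene and cell, whole numbers without normalisation per the file headers. Per the submitters' processing notes, the build was mm10 and Cell Ranger 3.0.1 was used; which matrices each applies to is not given in the sources used here. The cells had been selected before deposit. Total counts were 29166129 to 59957945 UMIs per library. Intervals of counts (Poisson) and shares (exact binomial) are at 95% and cover counting error only.

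Gene names that differ only in R spelling were merged (42562 to 41028 names). CPM values are UMIs of a gene per 1000000 UMIs of all deposited cells of the library. A cell was gated to the class with the highest share of its markers detected, with at least 3 markers and a lead of 0.2, and was otherwise unassigned. No doublet caller was run. Holding cells are the smallest set with 90% of a gene's UMIs. Shares were also computed after thinning each cell to 2000 UMIs, leaving out shallower cells. The pooled fresh 10x matrix and the 2 subset matrices of BD 1 served as descriptions only. Numbers of columns not used: 0.

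Whole-library sums were tested with edgeR 4.0.16 (TMM, filterByExpr, quasi-likelihood, 1 residual degree of freedom), with DESeq2 1.42.0 as an alternative, in R 4.3.3, and the script was tested on simulated data. All 10 genes passed the filter. Upstream sequences and gene positions are from RefSeq GRCm38.p6, the same build, where 10 of 10 genes matched. Transcript ends were aligned with Biopython 1.88 in Python 3.11.15.

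The 10 genes and the gene lists were chosen with earlier results of these data known. By the rule for named genes, the 10 genes are always named, with every called gene of a fixed list (at most 5 a direction) and, for each of the 10, the 3 genes with the highest mean correlation.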

Additional observations from a re-analysis of the deposited data

How the results depend on the processing

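Of the 30 ratios of the 10 genes to the fresh mean, 13 passed the fold rule. Under 9 alternatives, 259 of 270 values kept their sign and 11 did not. One of those 11 concerned a ratio past the fold rule: Dcpp1 in BD 1 was 0.54 on the log2 scale, and higher, with the 10 richest cells of each library left out, an alternative added after the data were seen, as was the restriction to epithelial cells.

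The number of the 10 genes at least 2-fold higher in stored 10x was 0 with all cells. It was 1 without the top cell, with TMM scaling or with the pooled fresh matrix, 1 to 1 when a fresh sample was left out, and 2 without the 10 richest cells. The number lower in stored 10x, 3 with all samples, was 1 to 3 when a fresh sample was left out. For BD 1 the number higher was 1 with all cells, 2 over cells that pass a floor of 500 UMIs and a ceiling of 20% for mitochondrial UMIs, and 1 to 2 when a fresh sample was left out. For BD 2 the number higher was 0 with all cells, 1 under that filter, with the pooled fresh matrix or without the 10 richest cells, and 0 to 2 when a fresh sample was left out. The number lower in BD 2, 3 with both samples, was then 3 to 5. The cause was not tested.

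The edgeR count for stored 10x was 25. It was 2 without the filter on low counts, where 24299 genes were tested, 13 with the BD libraries as 1 group, 347 with DESeq2, and 9 to 41 with a fresh sample left out and the BD libraries as 1 group. Without fresh 10x 1 it was 41 and without fresh 10x 2 it was 9. The count for BD 1, 6571, stayed between 4543 and 9053 under all alternatives, and was 7848 to 8185 with a fresh sample left out. Among the samples as tested only fresh 10x is replicated, so 1 residual degree of freedom limits these tests. The levels of Scgb1b27 and Pip rest on few cells, and how far depth limits them was not tested. Correlations between the 10 genes moved by more than 1 SD over libraries for 20 pairs with Spearman's rank correlation, 27 in the pooled fresh cells that are in no matrix per sample and 12 in epithelial cells alone. No paired analysis was possible because the stored 10x and BD 1 groups have 1 sample each and share no pair of replicate numbers with fresh 10x.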
